A study of Brassica napus with 23 samples.

Results

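The comparison described here is the effect of Pseudomonas chlororaphis PA23 on the shoots of Brassica napus 24 h after treatment. It rests on 6 of the 23 libraries of the study, the 3 shoot libraries labelled PA23 and the 3 labelled negative control at 24 h, chosen by tissue, treatment and harvest. The study sequenced RNA of shoots and roots at 24 h and 7 d after plants received either LB broth, the negative control, or 15 mL of a PA23 culture. Per the labels, plants were treated 7 days after planting and grown for 14 days, which is given for the 24 h harvest too, so the plants' age at 24 h is uncertain. The labels name no cultivar and do not say how many plants entered a library or whether replicates came from separate plants. The p-values therefore measure only how far libraries scatter, and part of that scatter may be technical. The effect is taken from the 6 libraries. The scatter is estimated over the shoot libraries of both harvests, 24 h and 7 d, which were fitted together.

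Brassica napus, oilseed rape, is an allotetraploid whose A and C subgenomes carry most genes as pairs of similar copies, called homoeologues. Pseudomonas chlororaphis PA23 is a bacterium used for biological control, which makes antifungal compounds and colonises roots. Bacteria on roots can prime shoots through hormone signals, a response known as induced systemic resistance, and the study's title names photosynthesis as its interest. The comparison asks what the shoot transcriptome shows 24 h after treatment, and the spread between libraries sets how large a change could have been seen.

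Depth was uneven. The controls held 1.41, 55.1 and 61.8 M counts (M, mega) in replicates 1 to 3, and the PA23 libraries 1.10, 129.6 and 16.8 M. Over the whole study the range was 0.622 to 721 M, with 6 libraries under 2 M. Replicate 1 of each group was thus shallow, and 3 counts there correspond to 2.12 CPM (counts per mega counts of the library) in the control and 2.73 CPM in the PA23 library, against 0.0231 to 0.179 CPM in the other 4. Over the 8978 genes at 20 CPM or more, the typical difference between libraries (median absolute deviation, log2) was 0.18 between control replicates 2 and 3 and 0.29 between PA23 replicates 2 and 3. Between treatments, the 4 pairs of deep libraries differed by 0.16 to 0.33. The closest pair of the 6 libraries was a control and a PA23 library, and pairs with a shallow library differed by 0.34 to 0.52. Control replicate 3 also stood apart on chromosome C02, and PA23 replicate 3 on stretches of A07 and C06, as given with the chromosomes.

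No gene passed the test. Of 56654 genes tested, 0 (0%) had an adjusted p under 0.05 (edgeR robust quasi-likelihood test, two-sided, Benjamini-Hochberg over all tested genes, 3 against 3 libraries). The spread in this test came from the shoot libraries of both harvests. The smallest adjusted p was 0.201. At an unadjusted p under 0.05 there were 586 genes (1.03%), 264 higher and 322 lower with PA23, where evenly spread p-values would put 5%. DESeq2 also called 0 genes, with 332 at an unadjusted p under 0.05, and limma-voom called 0, with 988; with library quality weights limma-voom called 1, with 2544. Leaving out each of the 6 libraries in turn, edgeR called 0 or 1 gene. The median log2 fold change was -0.01, with quartiles of -0.22 and 0.18, and 27598 genes lay above 0 against 29053 below.

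The genes could not be given names. Of the 101040 gene IDs, 3347 (3.31%) matched a symbol in RefSeq's gene table for the Da-Ae assembly, which carries no descriptions, and 2 of these had another name. None of the 16 gene lists by function could therefore be filled, and photosynthesis genes as such were not analysed here. Genes are given by ID with the coordinates of the deposited table, for which the sources used here name no build.

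The tissue label could be checked without names. The 200 genes most preferred by shoots over roots in the 7 d controls summed to 20120, 20992 and 23347 CPM, here and from now on per mega TMM-scaled counts, in the 24 h control shoots. Their sum was 21939, 22909 and 17641 CPM in the PA23 shoots, and at most 11.2 CPM in any root library at 24 h. The sums of this list and the next are scaled over shoot and root libraries together. Later CPM are scaled over the shoot libraries alone unless said otherwise. The 200 most root-preferred genes summed to 3.25, 40.0 and 5.37 CPM in the control shoots and 0, 4.92 and 2.20 CPM in the PA23 shoots, against 16969 to 22238 CPM in roots. Of these root-preferred genes, 47 were at 0 in all 6 shoot libraries. All 6 libraries therefore carried a shoot profile, and PA23 replicate 3 had the lowest shoot-preferred sum. Over those 200 shoot-preferred genes, all tested and 0 called, the median log2 fold change was -0.04 (quartiles -0.18 and 0.10), with 80 above 0 and 1 at an unadjusted p under 0.05. In 141 of them the 95% interval lay within 2-fold. In bulk samples, fewer cells of a type and less RNA per cell cannot be told apart.

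The precision of each gene's effect followed its level. The half-width of the 95% interval of the log2 fold change had a median of 0.88 over all tested genes, which is a factor of 1.84. By mean CPM over the 6 libraries, it was 1.64 for the 13050 genes under 1 CPM, 1.05 for 17648 genes at 1 to 5 CPM, 0.64 for 16978 at 5 to 20, 0.48 for 7416 at 20 to 100, and 0.45 for 1562 over 100. The median size of the measured effects lay well inside these half-widths in every class, while the interval left out 0 in 544 of the 56654 tested genes. Exact 95% intervals would leave out 0 in about 5% of unchanged genes. These intervals, and the needed changes below, may thus be too wide, for a reason not tested. The median half-width was 0.68 under a newer dispersion scheme of edgeR, 0.75 with only the 6 libraries and 0.98 by DESeq2. The median absolute log2 fold change was 0.43 in the lowest class, 0.12 at 20 to 100 CPM and 0.09 over 100 CPM. An effect of at least 2-fold was estimated for 2402 genes (4.24%), 979 higher and 1423 lower with PA23. Of these, 775 and 1113 were under 1 CPM, and at 20 CPM or more there were 2, both lower with PA23.

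**Figure D1:**
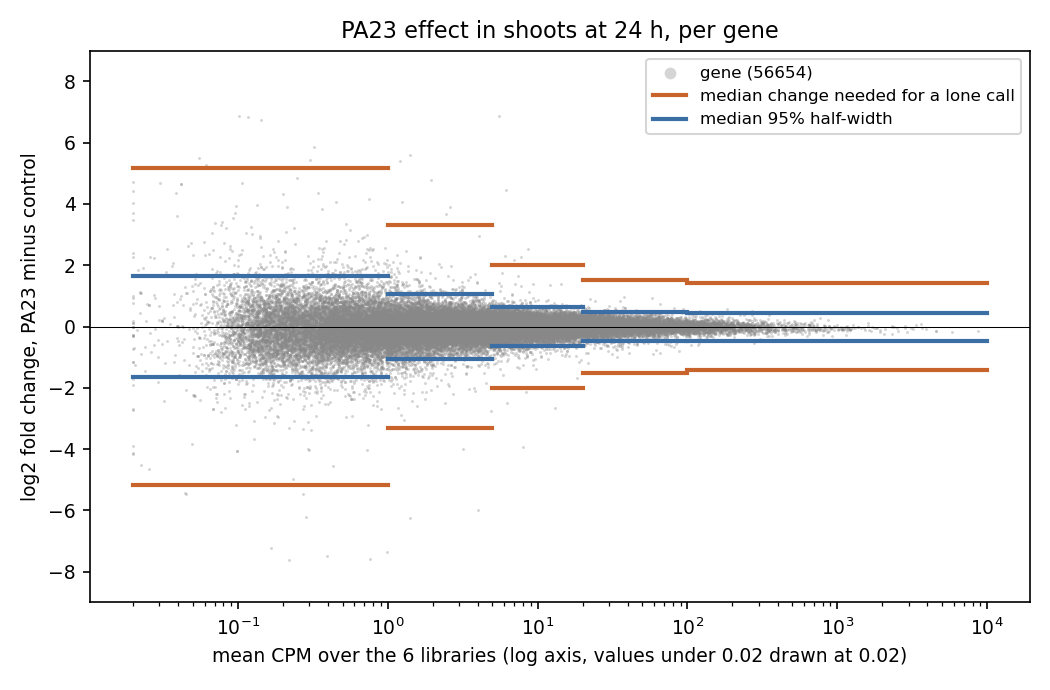
Log2 fold change of PA23 over control (vertical axis) against mean CPM on a log axis (horizontal axis) for the 56654 tested genes, one grey point each. Blue lines give the median 95% half-width and orange lines the median change needed for a lone call in each of 5 CPM classes; effects spread widely under 1 CPM and narrowly over 20 CPM.

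Changes above a given size could be bounded for many genes. The 95% interval lay within 2-fold of no change for 24595 genes (43.4%), within 4-fold for 47730 (84.2%) and within 1.5-fold for 5096 (8.99%). Within 2-fold were 0 genes under 1 CPM, 14.8% of those at 1 to 5 CPM, 79.4% at 5 to 20, 94.5% at 20 to 100 and 96.7% over 100. Even over 100 CPM, 62.2% of genes were bounded within 1.5-fold. These intervals are per gene and are not adjusted over genes.

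The change a gene needed to be called was larger. If it were the only gene called, its unadjusted p had to be 8.83e-07, which at the measured spread took a median 35.7-fold change under 1 CPM, 9.88-fold at 1 to 5 CPM, 4.02-fold at 5 to 20, 2.87-fold at 20 to 100 and 2.69-fold over 100. A gene whose true change had that size would pass in about 1 of 2 repeats. The sizes come from the standard error and the t distribution, whereas calls come from the quasi-likelihood test. They are therefore approximate, and can differ from the test where a group is near 0 counts. If 1000 genes changed together, the needed change fell to a median of 8.03-fold, 3.80-fold, 2.25-fold, 1.85-fold and 1.78-fold in the same classes. By this measure, no tested gene could have been called alone on a 2-fold estimate, whereas 16620 (29.3%) could on a 4-fold estimate. With 1000 called together, a 2-fold estimate would have sufficed for 10285 genes, 5927 of them at 20 to 100 CPM and 1366 over 100, and a 4-fold estimate for 35326 (62.4%).

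**Figure D2:**
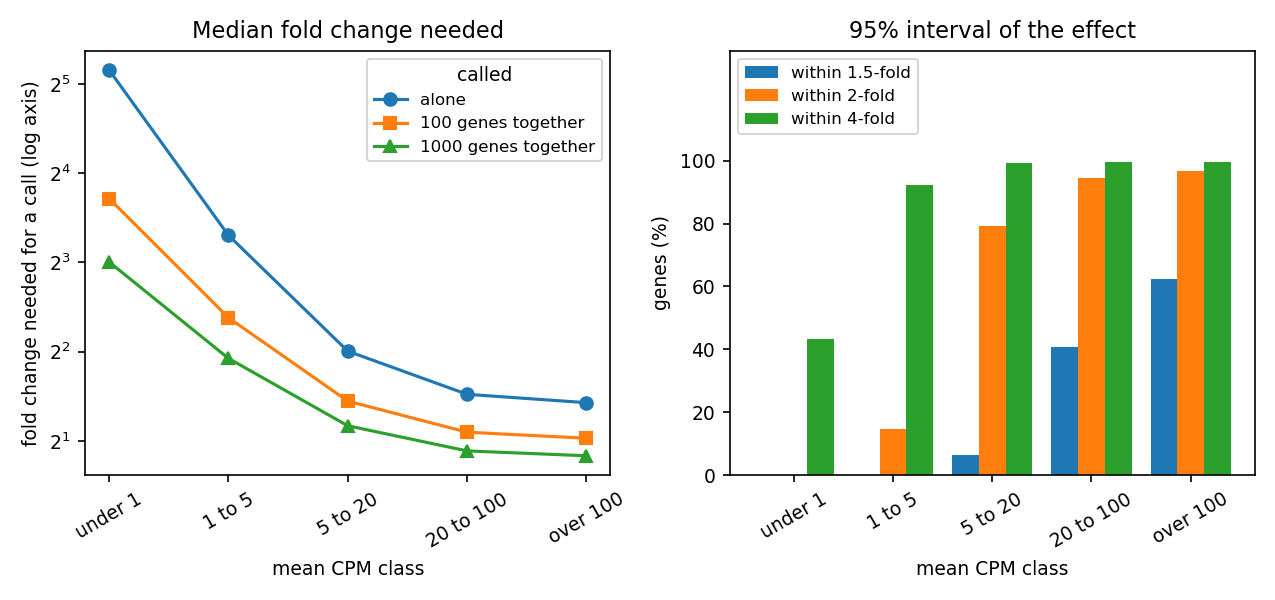
Left, median fold change needed for a call (log axis) by class of mean CPM, for a gene called alone or with 100 or 1000 genes. Right, percentage of genes in each class whose 95% interval lay within 1.5-fold, 2-fold or 4-fold of no change. The needed change was 35.7-fold under 1 CPM and 2.69-fold over 100 CPM for a lone gene.

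The counting error was taken from each group's summed fitted counts, which weights libraries by depth and gives the smallest value it could have. At 20 to 100 CPM the median standard error of the log2 fold change was 0.23. Counting alone gave at least 0.03, or 1.62% of the variance. This lowest share was 11.9% under 1 CPM and 0.374% over 100 CPM. In the fit, the shallow replicate 1 carried a median 12.4% of the control group's weight and 10.97% of the PA23 group's at 1 to 5 CPM, rising to 31.4% and 31.0% over 100 CPM. At 20 to 100 CPM it carried 25.6% and 24.3%, on medians of 48 and 38 counts. The fit thus weighted libraries more evenly than by depth. The counting error of its estimates was therefore larger than given, by an amount not computed. Of the counts from 1 to 10 in these libraries, 19.6% to 30.4% were odd, a pattern that arises when each read pair adds 2 counts. In that case the counting error given here is too small for that reason as well. The intervals themselves did not widen with counts halved: the median half-width was 0.67, beside 0.88 with the counts as deposited. The interval then lay within 2-fold for 31712 of 52925 tested genes. Without the shallow libraries of every group the median half-width was 0.69, and edgeR again called 0 genes, with 1276 at an unadjusted p under 0.05.

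The 5 most abundant shoot transcripts had narrower intervals than the median tested gene, but wider ones than the median gene over 100 CPM. By CPM, which is not corrected for gene length, BnaC04g30870D (C04, 32746246 to 32747451) led with 9903, 8409 and 8912 CPM in the controls and 8706, 9075 and 7110 CPM in the PA23 shoots. The groups overlapped, and PA23 replicate 3 was the lowest. The log2 fold change was -0.13, with a 95% interval of -0.63 to 0.37. BnaA04g08640D (A04, 7625853 to 7627148) held 6494, 5963 and 5985 CPM against 5484, 6232 and 4621 CPM, a log2 fold change of -0.17 (-0.73 to 0.38). For both genes a 2-fold change in either direction lay outside the interval. The next 3 in abundance, BnaA04g08570D, BnaAnng36210D and BnaC04g46560D, had log2 fold changes of -0.14, -0.15 and -0.07. In all 5, PA23 replicate 3 was the lowest of the 6 libraries, and for the last 2 the sign turned when it was left out.

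Among genes with a mean log2 CPM of 1 or more, those with the smallest p did not pass the adjustment. BnaCnng05510D (unplaced C sequence, 5117225 to 5118798) read 0.697, 2.23 and 3.63 CPM in the controls and 10.5, 5.22 and 12.5 CPM with PA23. Every PA23 library lay above every control, yet replicate 1 rested on 1 and 12 counts. Its log2 fold change was 1.74 (SE 0.45, adjusted p = 1). BnaC01g01570D (C01, 765168 to 767374) read 1.39, 6.06 and 3.24 CPM against 8.75, 14.8 and 8.49 CPM, also without overlap, at 1.40 (SE 0.40, adjusted p = 1).

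In the other direction, BnaAnng39320D (unplaced A sequence, 44759021 to 44760506) read 4.18, 15.3 and 21.2 CPM in the controls and 1.75, 2.57 and 4.94 CPM with PA23. The groups overlapped through control replicate 1, which with 6 counts lay under PA23 replicate 3. Its log2 fold change was -2.14 (SE 0.45, adjusted p = 1). limma-voom with library quality weights called it at an adjusted p of 0.0101 and DESeq2 without the shallow libraries at 1.79e-07, while edgeR gave 0.542 to 1 with single libraries left out. BnaA04g05640D (A04, 4363667 to 4366276) read 11.8, 0.543 and 11.7 CPM against 0, 0.144 and 0 CPM. Control replicate 2 was far below the other controls, and the fitted log2 fold change of -6.00 (SE 1.29, adjusted p = 1) was called without that library, at an adjusted p of 0.000486, the lowest of its alternatives, whose highest was 1. Without PA23 replicate 2 the remaining PA23 libraries were at 0, and the fitted value of -10.87 then depends on the prior count.

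**Figure D3:**
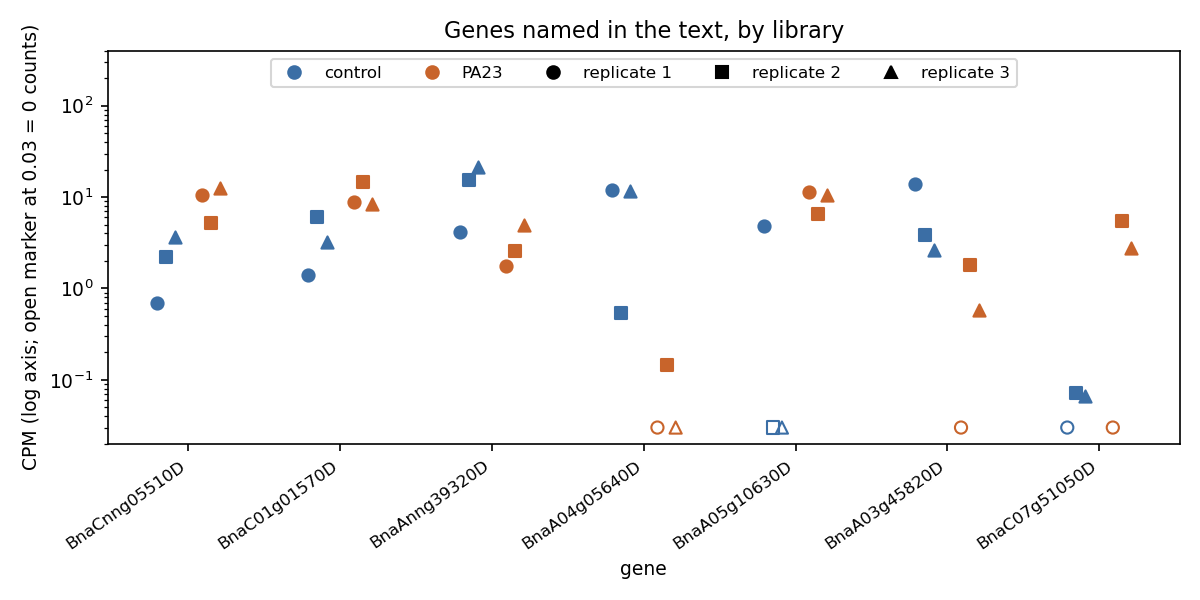
CPM on a log axis for 7 genes in each of the 6 libraries; blue marks controls, orange marks PA23, and the marker shape gives the replicate. Open markers stand at 0.03 and mean 0 counts; in BnaCnng05510D and BnaC01g01570D all PA23 libraries lie above all controls.

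The most extreme estimates among genes whose groups do not overlap rested on few libraries. BnaA05g10630D (A05, 5798745 to 5805308) had 7, 0 and 0 counts in the controls and 13, 819 and 180 with PA23, or 4.88, 0 and 0 against 11.4, 6.57 and 10.5 CPM. The shallow control library was thus the one control with counts, and the 2 deep controls had none. Its fitted log2 fold change was 6.88 (SE 1.99, adjusted p = 1), and 2.62 by DESeq2 on the same libraries (adjusted p = 1). Without control replicate 1 the remaining controls were at 0, and the fitted 11.6 (edgeR adjusted p = 0.58) then depends on the prior count. DESeq2 without the shallow libraries called the gene at an adjusted p of 2.76e-09, with a fitted 11.4 on the same footing, whereas edgeR without them gave an adjusted p of 0.749. BnaA03g45820D (A03, 23387328 to 23391137) read 13.9, 3.86 and 2.65 CPM in the controls and 0, 1.80 and 0.582 CPM with PA23, at -2.10 (SE 0.70, adjusted p = 1). The estimate was -3.31 without PA23 replicate 2 and -1.43 without control replicate 1, and edgeR gave -1.32 without the shallow libraries.

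The smallest p of all belonged to BnaC07g51050D (unplaced C07 sequence, 2845863 to 2847957), which the level filter left out and which is named after its values were seen. It had 0, 4 and 4 counts in the controls and 0, 685 and 48 with PA23, or 0, 0.072 and 0.067 against 0, 5.49 and 2.79 CPM. The shallow pair held none, so 2 libraries against 2 carry the difference. Its log2 fold change was 5.61 (SE 0.96, 95% interval 3.63 to 7.60, adjusted p = 0.201). It was called at adjusted p of 0.0216 with no filter, 0.00233 with the newer dispersion scheme of edgeR, 0.00333 with counts halved and 6.04e-09 by DESeq2 without the shallow libraries, and reached 1 under other alternatives. Under the newer scheme the call was lost without control replicate 2 (adjusted p = 0.0555) or PA23 replicate 2 (adjusted p = 0.15).

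BnaC01g09700D (C01, 5683764 to 5686252), the gene called at 7 d and also named for that reason, read 51.5, 36.7 and 42.2 CPM against 41.1, 59.9 and 37.5 CPM at 24 h. The groups overlapped, and the log2 fold change of 0.13 had a 95% interval of -0.36 to 0.62. Its sign turned to -0.12 without PA23 replicate 2.

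DESeq2 without the shallow libraries called 28 genes, 5 higher and 23 lower with PA23. This setting changes both the tool and the libraries: DESeq2 on all 12 shoot libraries called 0 genes, and edgeR without the shallow libraries called 0. The left-out replicate 1 libraries give a reading of these genes that did not enter that fit. With at least 10 counts over the pair there were 15 genes, and in replicate 1 the difference had the same direction for 5 of them and the opposite direction for 10. The share over all tested genes was not computed. Some directions rested on near-equal counts, such as 65 in the control and 64 with PA23 for BnaC07g29830D. Nothing is therefore read from the numbers of genes in each direction. BnaC08g34950D (C08, 33018120 to 33019446) had the same direction: 34.1, 47.2 and 54.0 CPM in the controls against 19.3, 25.5 and 22.4 CPM with PA23, with no overlap. BnaC06g06760D (C06, 7333032 to 7337621) did not: replicates 2 and 3 read 403 and 400 CPM against 227 and 195 CPM, while replicate 1 read 175 CPM in the control and 262 CPM with PA23. BnaA01g11840D (A01, 5912556 to 5914212) was alike, with 98.9 and 84.7 CPM against 43.2 and 47.0 CPM in replicates 2 and 3, and 33.4 against 69.1 CPM in replicate 1. These examples were chosen after their values were seen.

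Groups that do not overlap were counted without a model. In 4162 genes (7.35%) all 3 PA23 libraries lay on one side of all 3 controls, 1798 higher (3.17%) and 2364 lower (4.17%) with PA23. The share was 5.19% under 1 CPM, 8.74% at 1 to 5 CPM and 3.91% over 100 CPM. With 3 libraries per group, some genes separate by chance with no treatment effect, so nothing is read from these counts.

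Genes called in roots at 24 h were read in the shoots, with no library in common. In roots, 170 of 63551 genes (0.268%) were called, 93 higher (0.146%) and 77 lower (0.121%) with PA23. Of the 93, 52 were tested in shoots, 18 of them lay above 0, and their median shoot log2 fold change was -0.23 (range -1.29 to 2.81). Of the 77, 48 were tested in shoots, 19 lay above 0, and the median was -0.06 (range -1.66 to 1.74). Over all 52993 genes tested in both tissues, 49.0% lay above 0 and the median was -0.01. Leaving out single libraries moved both medians: the first was -0.045 without control replicate 3 and -0.12 when PA23 replicate 3 was left out. The second was 0.081 without control replicate 2, 0.026 when PA23 replicate 1 was left out and -0.39 when PA23 replicate 2 was. The median half-width was 1.27 and 1.05 in these lists. The shoot interval left out the root estimate for 40 of the 52 and 30 of the 48 genes, against 5980 of the 52993 genes tested in both. The choice of genes by a called root effect partly fixes these counts, so nothing is read from them.

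The difference between tissues was tested itself. In the joint fit of all 23 libraries, the PA23 effect at 24 h differed between shoots and roots in 1 of 68002 genes (0.00147%), with 3653 at an unadjusted p under 0.05. That gene, BnaA08g04230D (A08, 3574883 to 3579754), on the CPM scale of the joint fit, whose TMM factors span both tissues, stood at 10.9 ± 2.66 CPM in control and 11.4 ± 1.24 CPM in PA23 shoots (SD, n = 3 each). In roots it was at 0.018 ± 0.025 CPM in controls (SD, n = 2) and 0.928 ± 0.462 CPM with PA23 (SD, n = 3). On the scale of the shoot fit it read 9.75, 6.57 and 10.7 CPM in the controls and 10.5, 9.72 and 8.20 CPM with PA23. The shoot groups thus overlapped, and the root control level was near 0. For this gene the difference of log2 effects was -5.53 (SE 1.28, edgeR adjusted p = 0.0329). It was not called without 3 of the 6 shoot libraries in turn, where its adjusted p reached 0.112.

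The effect at 24 h differed from that at 7 d in 1 of 56654 genes (0.00177%), with 1472 at an unadjusted p under 0.05. BnaC06g27730D (C06, 29117384 to 29119933) had 0, 33 and 44 counts in the 24 h controls and 0, 1 and 1 with PA23, against 0 counts in total in the 3 control libraries at 7 d and 127 with PA23 (edgeR adjusted p = 0.007). Its 24 h levels were 0, 0.597 and 0.732 CPM in controls and 0, 0.00802 and 0.058 CPM with PA23. The fitted difference has no finite standard error, since the 7 d controls were at 0. The adjusted p reached 0.231 when single libraries were left out.

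Levels along the chromosomes set single libraries apart. Each library was set against the median of the other shoot libraries at 24 h with over 2 M counts, on log2(CPM + 0.5) for the 25956 genes at 5 CPM or more. On chromosome C02, control replicate 3 had a median deviation of -0.31 over 874 genes, and 92.9% of these genes lay below 0. In 17 blocks of about 50 consecutive genes (1576 to 46187924), the block medians ran from -0.39 to -0.24. The other 5 libraries had C02 medians of 0.06 to 0.11, each against a reference that includes control replicate 3. Over the 16 chromosomes other than C02, A07 and C06, the 6 libraries' medians ran from -0.09 to 0.14, and control replicate 3 stayed between -0.01 and 0.03.

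**Figure D4:**
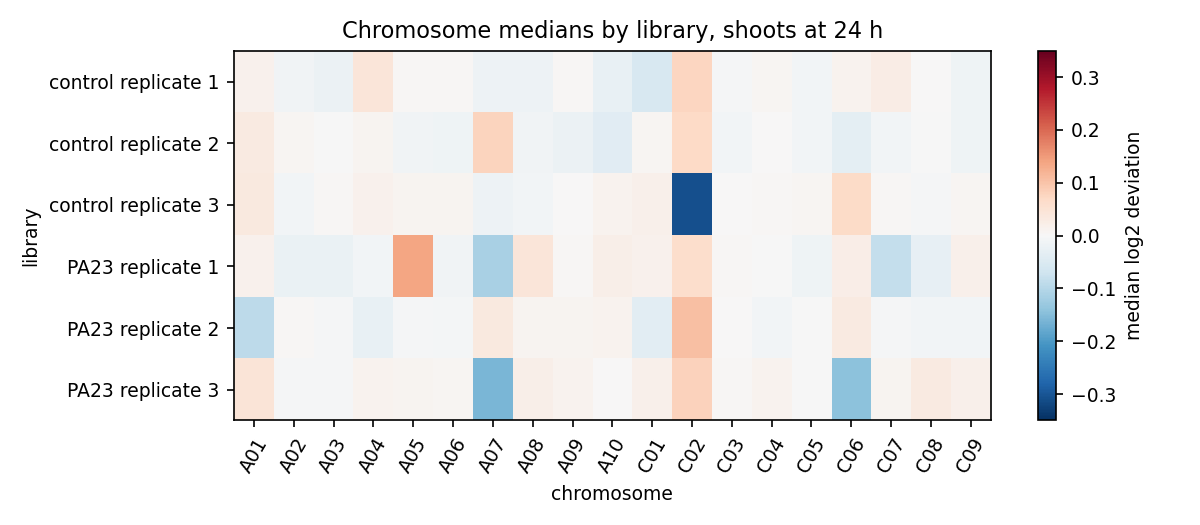
Median log2 deviation of each library (rows) from the median of the other deep 24 h shoot libraries, by chromosome (columns); red is above and blue below 0. Control replicate 3 stands at -0.31 on C02, and PA23 replicate 3 at -0.16 on A07 and -0.14 on C06.

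PA23 replicate 3 stood apart on stretches of A07 and C06. On A07 from 16653255 to 23991764 (450 genes, 9 blocks) its median deviation was -0.39, with 89.1% of genes below 0, while the 600 genes before this stretch had a median of -0.03. On C06 from 22371 to 25036488 (500 genes, 10 blocks) it was -0.28, with 88.6% below 0, against 0.03 over the rest of that chromosome. Control replicate 2 shifted at the same boundaries, to 0.19 on the same A07 stretch and to -0.15 on C06 from 25073326 to 37189712 (469 genes). The reference for control replicate 2 includes PA23 replicate 3, which was low on the A07 stretch but stood at 0.03 on C06 from 25073326. On that part of C06, 74.0% of genes lay below 0 in control replicate 2. The stretches were chosen after these values were seen.

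**Figure D5:**
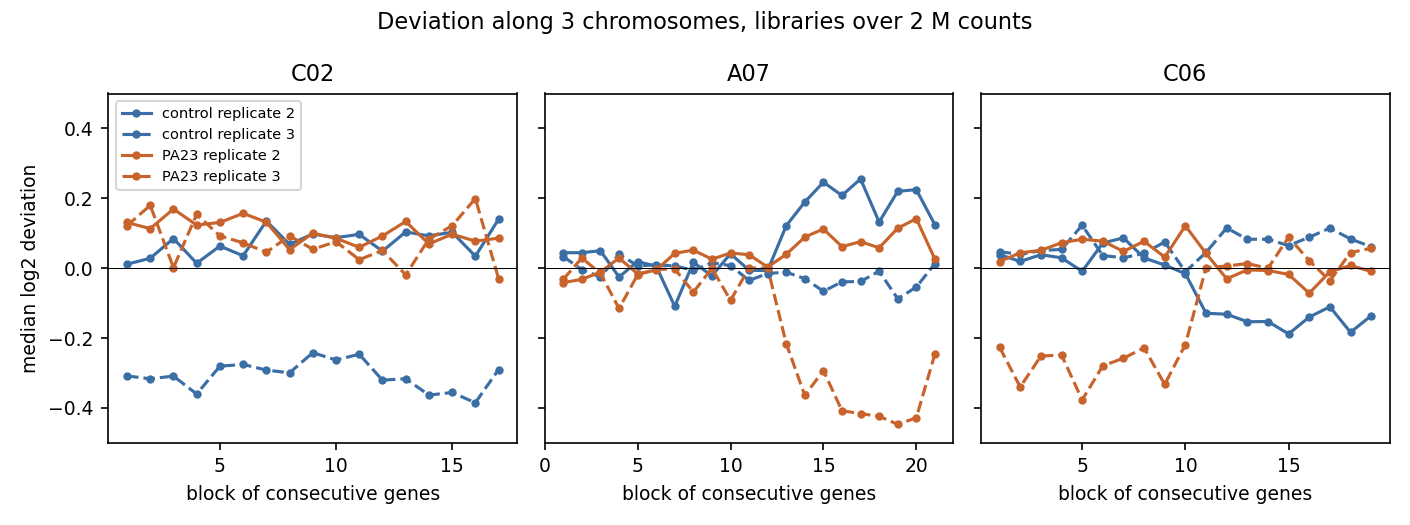
Median log2 deviation (vertical axis) in consecutive blocks of genes (horizontal axis) along C02, A07 and C06 for the 4 libraries with over 2 M counts; blue is control, orange is PA23, dashed lines are replicate 3. Control replicate 3 is low along all of C02, and PA23 replicate 3 turns low from block 13 of A07 and is low up to block 10 of C06.

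These stretches enter the treatment contrast. The median log2 fold change of C02 was 0.14, with 72.8% of its genes above 0, whereas chromosomes other than C02, A07 and C06 ran from -0.04 to 0.04. Without control replicate 3 it was 0.042, and without control replicate 2 it was 0.22. On C02, 43 of 2135 tested genes (2.01%) had an unadjusted p under 0.05, beside 1.03% of all tested genes. On the A07 stretch the median log2 fold change was -0.17, with 20.9% above 0 and 18 of 979 genes (1.84%) at that p. On the C06 stretch up to 25036488 it was -0.09, with 30.4% above 0 and 7 of 1191 genes (0.588%) at that p. Without the genes of these 3 chromosomes, edgeR called 0 of 49443 genes and 489 had an unadjusted p under 0.05. The cause of the single libraries' shifts was not tested.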

How the data were processed

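The authors deposited whole-number counts per gene for 101040 genes in 23 libraries, unscaled. HISAT2 and DESeq2 are named per the submitters' processing notes. The sources used here name no build, annotation, strand setting or counting tool. Nor do they say how reads shared by A and C copies were assigned, so the split between near-identical copies is uncertain.

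The counts of all 12 shoot libraries were fitted in 4 groups with edgeR 4.0.16 in R 4.3.3 (filterByExpr, TMM, robust quasi-likelihood, threshold 0.05). Standard errors came from the fit's information matrix times the quasi-dispersion, and intervals from the t distribution. Roots were fitted separately and all 23 libraries jointly for the tissue difference. Alternatives used DESeq2 1.42.0 and limma 3.58.1. Scripts were tested on simulated data. Named genes were the 2 smallest p and 2 most extreme non-overlapping fold changes in each direction, with a mean log2 CPM of 1 or more, and the 5 most abundant. Others were named because a test of a difference or an alternative setting called them, or are said to be chosen after their values were seen. The comparison, lists and tests were chosen with earlier results of these data known.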

Additional observations from a re-analysis of the deposited data

Results flagged for a closer look

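The PA23 effect at 24 h differed between shoots and roots in 1 gene by the test of the difference itself: BnaA08g04230D, with a shoot minus root difference of log2 effects of -5.53 (edgeR adjusted p = 0.0329). Its shoot groups overlapped, and it was near 0 in control roots.

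The PA23 effect in shoots differed between 24 h and 7 d in 1 gene, BnaC06g27730D (edgeR adjusted p = 0.007), with 0 counts in the 3 control libraries at 7 d.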

How the results depend on the processing

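Calls numbered 0 with only the 6 libraries, all 23 libraries, RLE or upper-quartile factors, a 5 CPM minimum, DESeq2, limma-voom, no robust moderation, summed 7 d pairs or edgeR without shallow libraries. They numbered 1 with no filter, quality weights, the newer dispersion scheme or counts halved, 28 by DESeq2 without shallow libraries, and 0 to 1 leaving out single libraries. Without control replicate 3 the call was BnaC04g06030D (adjusted p = 0.00627) and without PA23 replicate 3 BnaAnng29900D (adjusted p = 0.0168). Under the newer scheme, added after seeing the data, calls numbered 0 when PA23 replicate 2 was left out, 4 for control replicate 2, 11 for control replicate 3 and 35 for PA23 replicate 3. The causes were not tested.

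Genes at an unadjusted p under 0.05 numbered 2193 with all 23 libraries, 2688 with no filter, 185 at 5 CPM, 332 by DESeq2, 988 by limma-voom, 2544 with quality weights, 1432 under the newer scheme, 1276 by edgeR and 1153 by DESeq2 without shallow libraries, and 625 to 1830 leaving out single libraries. The median fold needed alone, 6.85 in the reported fit, was 11.4 with no filter, 3.89 at 5 CPM and 4.21 with quality weights. It was 4.40 with counts halved, 14.0 by edgeR and 3.40 by DESeq2 without shallow libraries, and 8.27 to 11.4 leaving out single libraries. It was 5.30 with only the 6 libraries, 4.62 under the newer scheme, 5.46 by DESeq2 on all shoot libraries and 8.69 with summed 7 d pairs. The median half-width was 0.58 at 5 CPM and 0.57 with quality weights. It was 0.89 to 1.12 leaving out single libraries, when 15325 to 25104 genes were bounded within 2-fold. With only the 6 libraries it was 0.75, under the newer scheme 0.68, with counts halved 0.67, by DESeq2 0.98 and with no filter 1.20. Genes bounded within 2-fold then numbered 27141, 34201, 31712, 20887 and 24797.

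Correlations of deviations were -0.08 to 0.09 for the 3 same-numbered pairs and -0.16 to 0.13 for the 6 others. So few pairs cannot show whether libraries of the same replicate number were paired. The replicate block gave 1 call, BnaC07g51050D, and 605 genes at an unadjusted p under 0.05.

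Leaving out single libraries, root-higher genes had shoot medians of -0.31 to -0.045, root-lower genes -0.39 to 0.081, and C02 0.042 to 0.22. The tissue difference was called in 0 genes with RLE factors, 8 by DESeq2, 5 without shallow libraries and 0 to 36 leaving out single libraries; the harvest difference in 0 by DESeq2, 0 without shallow libraries and 0 to 7. Over 13 named genes and 294 combinations of gene and setting, 3 changed sign: BnaC01g09700D (-0.12 to 0.28 leaving out single libraries) without PA23 replicate 2, and BnaAnng36210D (-0.24 to 0.00058) and BnaC04g46560D (-0.15 to 0.084) without PA23 replicate 3. At a median of 2 to 3 counts per gene at 1 to 5 CPM, the shallow libraries could show little for low genes.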
